A study of Rattus norvegicus with 16 samples.

Results

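The lateral habenula (LHb) and the medial habenula (MHb) were compared across the 8 arrays of these regions, out of 16 arrays in the series. They were chosen by their region label: 4 arrays of LHb and 4 of MHb, 1 for each of 4 treatments, and each LHb array was set against the MHb array of the same treatment. All 15037 genes that could be named on the array were tested, each by the brightest probe set of its symbol. The tissue came from male Wistar rats of 8 to 10 weeks, treated for 60 minutes. The treatments were oxygen alone (O2), sevoflurane at 2.4%, propofol (a bolus of 10 mg/kg, then 36 mg/kg every hour), and Intralipos, an emulsion with 10% lipid, given at the same rates as propofol. Every rat, controls included, breathed 40% oxygen at 6 L/min. Each region was excised by laser microdissection after Nissl staining, so each array holds RNA of all cells in the cut fragment. The labels do not say how many rats went into an array or whether an LHb and an MHb array came from the same rats.

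The habenula is a small paired nucleus at the top of the thalamus that links the forebrain with the midbrain. Its medial part holds densely packed neurons that release glutamate together with acetylcholine or substance P, carry nicotinic receptors of unusual composition, and project through the fasciculus retroflexus to the interpeduncular nucleus. The lateral part holds glutamate neurons that receive input from the basal ganglia and hypothalamus. It restrains dopamine and serotonin neurons and is known for its role in aversion. The medial part borders the third ventricle with its ependyma and choroid plexus, and the lateral part borders the thalamus.

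Values are log2 signals, 1 per gene and array, and the log2 scale was taken from the values. Arrays of the sevoflurane and O2 treatments had a mean over all probe sets of 7.20 to 7.21, and those of propofol and Intralipos of 6.97 to 6.99. The labels do not say whether these 2 sets were normalized separately. Differences below are LHb minus MHb within a treatment, which takes up any level shared by both arrays of a pair. The value after ± is limma's moderated standard error for the mean over 4 pairs. Tests are limma's, with Benjamini-Hochberg adjustment over all 15037 genes and a threshold of 0.05. The treatments stand in for replicates, so p-values measure the spread of the paired differences between treatments. No background call was used, so where a gene lies near the low end of the scale in 1 region (the lowest value of the table is 2.47) its difference can be a lower bound. In bulk tissue, fewer cells of a type and less RNA per cell cannot be told apart.

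The 4 marker genes given with the comparison were read first. All 4 are also among the 15 largest differences of these data, so their values are no separate check of the labels. Chat encodes choline acetyltransferase, which makes acetylcholine, and Chrnb3 a nicotinic receptor subunit, both textbook genes of medial habenula neurons. Chrnb3 read 10.29, 10.42, 9.63 and 8.77 in LHb and 16.32, 17.00, 16.07 and 15.30 in MHb with O2, sevoflurane, Intralipos and propofol in that order. Chat read 6.43, 6.70, 6.28 and 5.77 in LHb and 11.27, 12.20, 11.22 and 11.51 in MHb, in the same order. Every MHb array lay above every LHb array for both genes, by a mean of 6.39 ± 0.15 for Chrnb3 (limma adjusted p = 6.8e-09) and 5.26 ± 0.18 for Chat (2.5e-08).

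Cbln1, which encodes the synapse organizer cerebellin 1, and Gabra5, a GABA-A receptor subunit gene, ran the other way. Cbln1 read 12.58, 12.32, 13.16 and 13.31 in LHb and 3.82, 4.20, 3.97 and 5.36 in MHb. Gabra5 read 11.81, 12.24, 11.59 and 11.72 in LHb and 4.45, 4.34, 3.80 and 4.55 in MHb. No array of one region reached the values of the other. The difference was 8.50 ± 0.21 for Cbln1 (limma adjusted p = 6.8e-09), and 7.56 ± 0.16 for Gabra5 (5.3e-09). Of the wider marker lists, 14 of 16 measured MHb neuron markers were higher in MHb, and 11 of 14 LHb neuron markers were higher in LHb. These lists were chosen with earlier results of these data known, so their counts are no separate check of the labels either. Of all genes tested, 15.2% were higher in MHb and 14.7% in LHb.

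Some markers went against their list. Calb2, a calcium-binding protein gene listed for MHb, was higher in LHb by 2.32 ± 0.16, and Htr5b, a serotonin receptor gene listed for LHb, was higher in MHb by 1.70 ± 0.18. Gpr151, an orphan receptor gene of habenula neurons placed in both lists, was higher in MHb by 2.26 ± 0.18.

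The sequences before the starts of 5 genes are shown because the genes of the acetylcholine locus share a direction and because the LHb genes Vsnl1 and Gabra5 lie at the other end of the comparison. Chat and Slc18a3, the vesicular acetylcholine transporter gene, start close together on the same strand, and Slc5a7 encodes the choline transporter of the same neurons. Each is the 250 bases before the gene's start from RefSeq, build GRCr8, written on the gene's strand. Capitals mark a match, on either strand, to 1 of 6 short motifs that were searched: TAATTA (homeodomain), CAGATG (E-box), TGACGTCA (cAMP response element), AAAGGTCA (Nr4a element), GCGTGGGCG (Egr element) and CCGGAAGT (ETS element). The motifs were chosen after the values of the factor genes were seen.
Chat, chr16:7723417-7723666, minus strand: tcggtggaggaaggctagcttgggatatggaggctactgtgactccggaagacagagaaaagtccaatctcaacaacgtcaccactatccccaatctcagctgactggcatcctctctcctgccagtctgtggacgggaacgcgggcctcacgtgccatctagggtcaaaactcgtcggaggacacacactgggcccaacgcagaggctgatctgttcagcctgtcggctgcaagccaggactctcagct
Slc18a3, chr16:7722815-7723064, minus strand: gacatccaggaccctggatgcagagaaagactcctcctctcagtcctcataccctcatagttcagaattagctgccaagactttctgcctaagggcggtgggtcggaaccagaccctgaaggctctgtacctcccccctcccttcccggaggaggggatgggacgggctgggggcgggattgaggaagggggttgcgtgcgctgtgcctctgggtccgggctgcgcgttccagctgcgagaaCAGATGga
Slc5a7, chr9:7953510-7953759, minus strand: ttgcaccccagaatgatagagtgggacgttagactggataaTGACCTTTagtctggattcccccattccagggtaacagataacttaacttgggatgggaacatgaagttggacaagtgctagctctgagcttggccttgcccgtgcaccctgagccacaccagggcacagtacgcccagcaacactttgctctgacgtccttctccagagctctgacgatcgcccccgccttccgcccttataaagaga
Vsnl1, chr6:39878557-39878806, minus strand: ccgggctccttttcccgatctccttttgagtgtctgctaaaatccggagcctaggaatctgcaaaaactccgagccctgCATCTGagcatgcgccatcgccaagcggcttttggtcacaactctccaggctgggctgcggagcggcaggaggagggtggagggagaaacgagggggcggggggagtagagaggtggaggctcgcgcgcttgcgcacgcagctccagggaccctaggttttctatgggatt
Gabra5, chr1:117516607-117516856, minus strand: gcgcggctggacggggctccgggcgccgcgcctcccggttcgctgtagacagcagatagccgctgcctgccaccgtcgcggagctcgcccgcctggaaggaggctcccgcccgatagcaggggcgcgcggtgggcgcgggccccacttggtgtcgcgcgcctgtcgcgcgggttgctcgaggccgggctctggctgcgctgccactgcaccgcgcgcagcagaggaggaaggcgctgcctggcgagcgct

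Slc18a3 and Vsnl1 hold the E-box, which stood in 11.08% of the same windows of 12435 genes, and Slc5a7 holds the Nr4a element, which stood in 1.01%. Chat and Gabra5 held none of the 6. Over all called genes with a window, the ETS element stood in 30 of 1796 genes higher in LHb (1.67%) and in 119 of 1896 higher in MHb (6.28%), beside 5.18% of all windows. In the same order, LHb, MHb and all windows, the homeodomain motif stood in 2.0%, 1.95% and 3.91%, and the E-box in 8.3%, 9.76% and 11.08%. The Nr4a element, the match in Slc5a7, stood in 1.11%, 0.69% and 1.01%, and so was no more frequent among all called genes higher in MHb. Among the 15 largest differences it stood in 2 of 11 windows towards MHb, Tyrp1 and Slc5a7, and in 0 of 9 towards LHb. These small counts were not tested. The cAMP response element stood in 2.28%, 3.16% and 2.36%, and the Egr element in 1.11%, 0.84% and 0.76%. A match is a string of letters in the window, and nothing about a factor's binding was measured.

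Across all genes the regions differed widely. Of 15037 genes, 4497 passed the test (29.9%). Of all genes, 2215 were higher in LHb (14.7% of those tested) and 2282 in MHb (15.2%), and 3070 of these 4497 genes had no overlap between the 4 LHb and the 4 MHb arrays. Over all genes 22.4% had no such overlap. Large differences leaned towards LHb. At a size of at least 1 on the log2 scale, a 2-fold difference, 1050 genes were higher in LHb (6.98%) and 738 in MHb (4.91%). At a size of at least 2, 586 genes passed (3.9%), 341 higher in LHb (2.27%) and 245 in MHb (1.63%). At a size of at least 4, a 16-fold difference, 58 were higher in LHb (0.386%) and 32 in MHb (0.213%). The median difference over all genes was -0.04.

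Taken over all genes, the differences were similar under all treatments, though some genes named below, such as Fos and Chrna6, varied between pairs. Pearson correlations across genes between the LHb minus MHb differences of different treatments, which share no array, lay between 0.811 and 0.846. Genes are not independent replicates, so these carry no test. Without a treatment block the test called 2883 genes, 1536 higher in LHb and 1347 in MHb. Genes near the edge of the call, named for that position after their values were seen, were Ndufa5 inside it, with a difference of 0.43 ± 0.14 and a limma adjusted p of 0.0498, and Acy3 outside it, with 0.45 ± 0.15 and 0.0501. The Ndufa5 call was lost without any 1 of the 4 pairs (0.32 to 0.50, limma adjusted p = 0.0539 to 0.183).

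**Figure D1:**
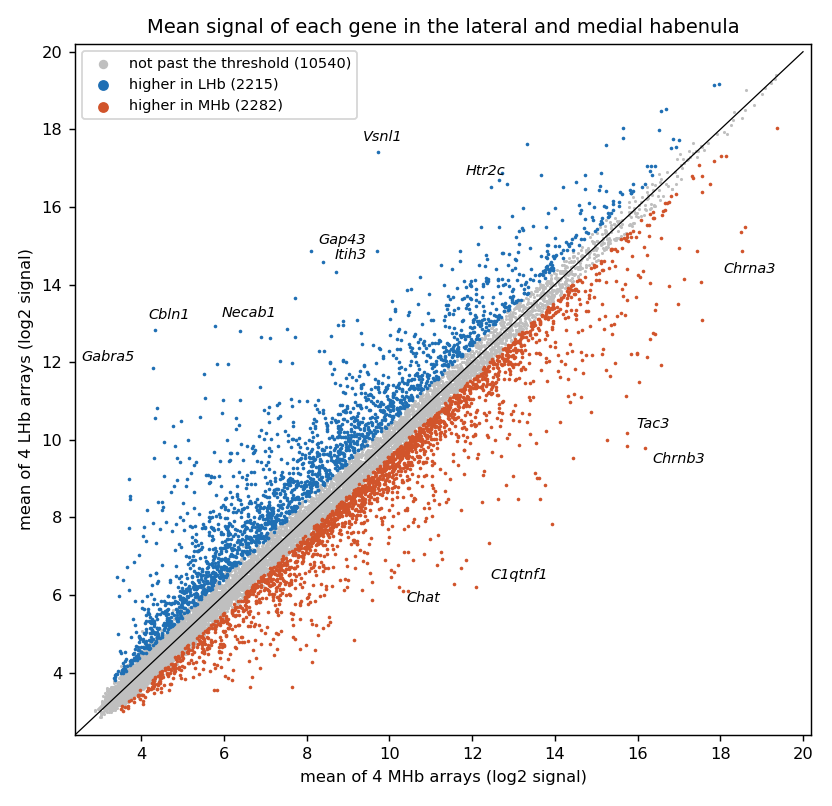
Each point is 1 of 15037 genes, with its mean log2 signal over the 4 MHb arrays on the x axis and over the 4 LHb arrays on the y axis; blue and orange points passed the test and the line marks equal signal. Cbln1, Vsnl1 and Gabra5 stand farthest on the LHb side, and Chrnb3 and Tac3 far on the MHb side.

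The 15 genes with the largest differences towards LHb were Cbln1, Vsnl1, Gabra5, Necab1, Gap43, Cacna1i, Gabrb2, Chrm2, Cacng2, Itih3, Syt17, Gjb6, Nrxn3, Slc24a3 and Gpr158. Their differences ran from 8.50 down to 5.62, and each was positive in 4 of 4 pairs. Vsnl1, which encodes the neuronal calcium sensor visinin-like 1, read 17.51, 17.52, 17.28 and 17.36 in LHb and 9.83, 9.52, 9.63 and 9.88 in MHb. The difference of 7.70 ± 0.14 is 208-fold. Gap43, which encodes a growth cone protein kept in adult neurons that remodel their terminals, read 14.72, 14.51, 15.14 and 15.05 in LHb and 8.46, 7.35, 8.49 and 8.13 in MHb. The 2 regions did not overlap for either gene.

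Cacna1i encodes a T-type calcium channel, the kind that carries rebound bursts, and Cacng2 (stargazin) an auxiliary subunit of AMPA receptors. Cacna1i read 11.18, 10.71, 10.65 and 10.79 in LHb and 3.93, 4.33, 4.72 and 4.56 in MHb. Cacng2 read 11.61, 12.22, 11.41 and 11.58 in LHb and 5.93, 5.55, 5.11 and 5.48 in MHb. Every LHb array was above every MHb array for both. Syt17, of the synaptotagmin family, had LHb values of 11.37 to 12.56 and MHb values of 4.69 to 6.90. Slc24a3 encodes a sodium, potassium and calcium exchanger (5.75 ± 0.17), Nrxn3 a presynaptic neurexin (5.87 ± 0.19) and Gpr158 an orphan receptor that binds the heparan sulfate proteoglycans of synapses (5.62 ± 0.18). Itih3 and Gjb6, a connexin gene, are expressed by astrocytes and are taken up with the other cell types.

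The 15 largest differences towards MHb were those of Chrnb3, Ttr, Slc17a7, C1qtnf1, Tac3, Necab3, Chat, Cpne9, Ano1, Slc18a3, Tyrp1, Nptx1, Chrnb4, Slc5a7 and Fzd1, from 6.39 to 4.62. Slc17a7, which encodes the vesicular glutamate transporter VGLUT1, read 10.17, 10.83, 8.99 and 9.39 in LHb and 15.83, 15.92, 15.64 and 15.62 in MHb. Tac3, the neurokinin B precursor gene, read 10.94, 11.50, 8.37 and 9.86 in LHb and 16.14, 15.96, 15.31 and 15.60 in MHb. The MHb arrays lay close together for both, and the LHb arrays spread more widely, lowest with Intralipos. C1qtnf1, a secreted C1q-family protein gene, read 6.59, 6.50, 5.49 and 6.29 in LHb and 12.21, 11.85, 12.05 and 12.29 in MHb.

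Ano1, which encodes a calcium-activated chloride channel, was higher in MHb by 5.08 ± 0.16, and Cpne9, a calcium-dependent phospholipid-binding protein gene, by 5.18 ± 0.17. Nptx1 encodes a pentraxin that clusters AMPA receptors (4.93 ± 0.20), Fzd1 a Wnt receptor (4.62 ± 0.15) and Tyrp1 an enzyme known from melanin synthesis (4.95 ± 0.16). Necab1 and Necab3 belong to the same family of calcium-binding proteins and stood at opposite ends. Necab1 was higher in LHb by 7.16 ± 0.24, with LHb arrays at 12.74 to 13.42 and MHb arrays at 5.25 to 6.23. Necab3 was higher in MHb by 5.27 ± 0.14, and Necab2 by 2.16 ± 0.15.

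**Figure D2:**
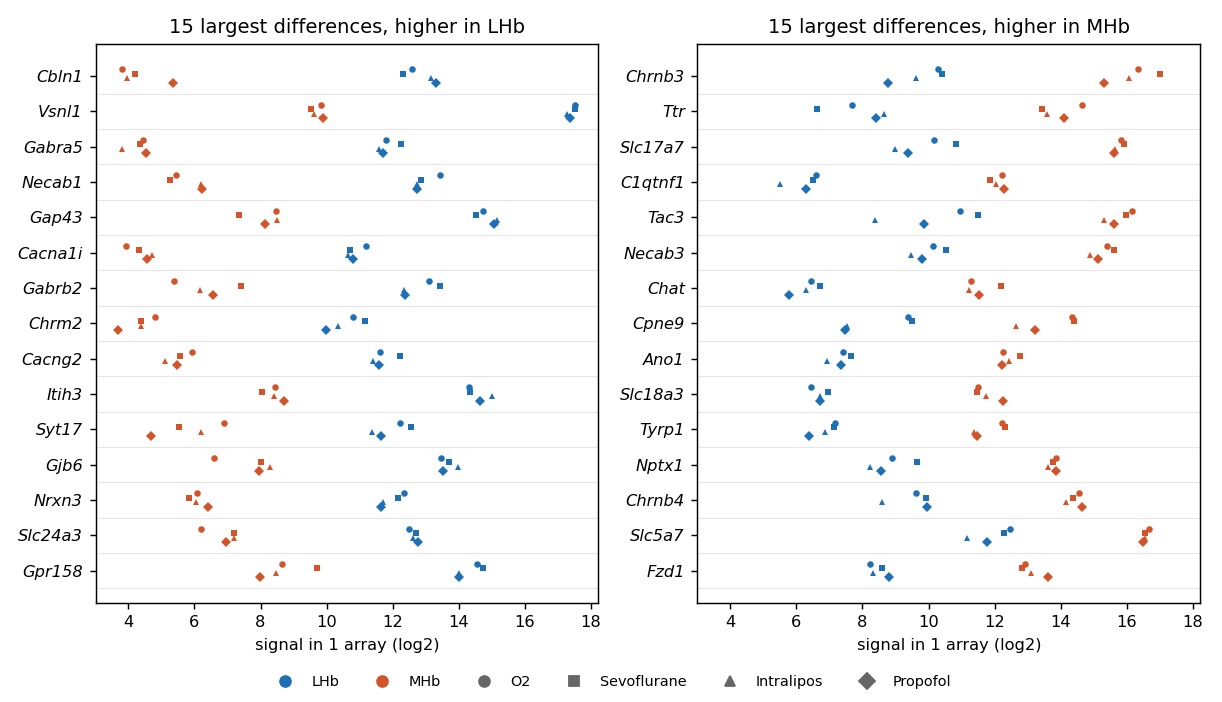
Each symbol is the log2 signal of 1 array (x axis) for the 15 largest differences in each direction, blue for LHb and orange for MHb, with the shape giving the treatment. In none of the 30 genes did a blue symbol reach an orange one.

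Transcription factor genes of habenula and thalamus leaned towards MHb. Of 22 measured, 14 were higher in MHb and 3 in LHb, with a median of -0.96 against -0.04 over all genes. Of all genes 15.2% were higher in MHb and 14.7% in LHb, the shares to set beside each list count below. Etv1, an ETS factor gene, read 12.25, 12.15, 11.44 and 12.06 in LHb and 15.61, 15.40, 15.34 and 15.51 in MHb, and no arrays overlapped. The zinc finger gene Zic1 was higher in MHb by 2.58 ± 0.14, Ebf1 by 2.11 ± 0.15 and Nr4a2, a nuclear receptor gene of habenula neurons, by 1.48 ± 0.15. The LIM homeobox genes Lhx2 and Lhx9 were higher in MHb by 1.63 ± 0.14 and 1.39 ± 0.18. On the LHb side stood the nuclear receptor genes Nr2f2 (3.19 ± 0.27), Rorb (2.55 ± 0.18) and Nr2f1 (1.22 ± 0.19). Isl1 (-0.19) and Gbx2 (0.08) did not pass.

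The genes Chat, Slc18a3 and Slc5a7, which serve to make, load and recycle acetylcholine, were higher in MHb, and 4 of 5 muscarinic receptor genes were higher in LHb. Slc18a3 read 6.43, 6.97, 6.71 and 6.70 in LHb and 11.50, 11.46, 11.73 and 12.25 in MHb. Slc5a7 read 12.46, 12.28, 11.16 and 11.78 in LHb and 16.68, 16.55, 16.55 and 16.50 in MHb. With Chat, these were the 3 genes higher in MHb among 13 measured cholinergic genes, and 5 were higher in LHb. Chrm2, a muscarinic receptor gene coupled to Gi, read 10.81, 11.16, 10.35 and 9.97 in LHb and 4.81, 4.40, 4.39 and 3.70 in MHb. Chrm5, coupled to Gq, read 10.13, 10.47, 9.49 and 9.68 in LHb and 4.81, 5.10, 3.93 and 4.39 in MHb. The arrays of the regions did not overlap for either gene. Chrm3 was higher in LHb by 1.58 ± 0.24, Chrm4 by 0.75 ± 0.21, and Ache, which encodes the enzyme that breaks acetylcholine down, by 2.30 ± 0.15. Chrm1 stood at -0.31 ± 0.17 and did not pass. Chrm4 lost its call without the O2 pair (0.63, limma adjusted p = 0.0966) or the propofol pair (0.54, 0.0978).

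Nicotinic receptor subunit genes leaned towards MHb, where 7 of 11 measured were higher, against 1 in LHb. The list holds 4 further genes, of proteins that bind or assemble the receptor, and 3 of these were higher in LHb. Chrna3, Chrnb4 and Chrna5 are neighbours in the genome and encode subunits of the high-conductance receptor of the medial habenula. Chrnb4 read 9.63, 9.93, 8.58 and 9.95 in LHb and 14.54, 14.38, 14.17 and 14.64 in MHb. Chrna3 read 14.94, 15.52, 14.18 and 14.82 in LHb and 18.59, 18.71, 18.48 and 18.31 in MHb. Neither gene had overlapping arrays. Chrna5 was higher in MHb by 1.24 ± 0.20, Chrna4 by 3.33 ± 0.16, Chrnb2 by 0.82 ± 0.15 and Chrna6, the neighbour of Chrnb3, by 2.67 ± 0.44.

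Chrna7, which forms receptors on its own, was the subunit gene higher in LHb, by 0.70 ± 0.17. The accessory genes higher in LHb were Lypd1 (3.35 ± 0.15), Lynx1 (0.50 ± 0.14) and Tmem35a (0.64 ± 0.14). Lypd1 encodes a GPI-anchored inhibitor of the receptor, and its arrays read 8.18 to 8.89 in LHb and 4.91 to 5.13 in MHb. Chrna7 lost its call without the propofol pair (0.60, limma adjusted p = 0.0529) or the Intralipos pair (0.59, 0.0527), and Lynx1 without the sevoflurane (0.44, 0.0925), O2 (0.47, 0.0859) or Intralipos pair (0.49, 0.0581).

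Fast transmitters also set the regions apart. The vesicular glutamate transporter gene Slc17a6 (VGLUT2) was high in both, at 14.80 to 15.84 in LHb and 14.18 to 15.46 in MHb, with a small difference of 0.54 ± 0.13. Slc17a7 (VGLUT1) had its large difference towards MHb, and Slc17a8 (VGLUT3) was higher in LHb by 1.84 ± 0.19. The GABA synthesis genes Gad1 (0.00 ± 0.22) and Gad2 (-0.03 ± 0.26) did not pass, and the vesicular GABA transporter gene Slc32a1 was higher in LHb by 0.51 ± 0.16. The GABA transporter gene Slc6a11 (GAT-3) and the GABA-degrading enzyme gene Abat were higher in LHb by 4.05 ± 0.14 and 3.27 ± 0.15. Slc6a11 is a gene of astrocytes, whose markers were also higher in LHb, and their part in this difference was not tested. Slc17a6 lost its call without the sevoflurane pair (0.51, limma adjusted p = 0.0534) or the O2 pair (0.52, 0.0515), and Slc32a1 without the sevoflurane (0.49, 0.1), propofol (0.37, 0.138) or Intralipos pair (0.56, 0.0559).

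Many GABA-A and glycine receptor subunit genes were higher in LHb, and both genes of the metabotropic GABA-B receptor were higher in MHb. Of 22 measured genes, 13 were higher in LHb and 3 in MHb, with a median of 1.26. When only the brighter genes (mean signal at or above the median gene) were tested, the counts were 7 and 3. Of all 7519 brighter genes 53.3% passed, 1801 higher in LHb and 2204 in MHb. The brighter genes as a whole thus leaned towards MHb, which bears on every brighter-gene count below. Gabrb2 read 13.09, 13.42, 12.33 and 12.37 in LHb and 5.39, 7.42, 6.16 and 6.56 in MHb. Gabra3 read 13.00, 13.44, 12.21 and 12.10 in LHb and 8.62, 9.02, 7.97 and 8.72 in MHb. Glra3, a glycine receptor subunit gene, read 8.95, 8.87, 8.79 and 9.39 in LHb and 3.30, 3.85, 3.50 and 4.11 in MHb. The arrays of the regions were apart for all 3 genes.

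Gabrg3 (4.01 ± 0.21), Gabra4 (3.74 ± 0.19), Gabrb1 (3.44 ± 0.15), Gabrq (3.09 ± 0.18) and Glra2 (2.90 ± 0.19) followed. Gabra2, which read 13.46 to 13.62 in LHb and 12.88 to 13.28 in MHb, differed by 0.48 ± 0.15, a call lost without the sevoflurane (0.54, limma adjusted p = 0.0634), propofol (0.41, 0.133) or Intralipos pair (0.39, 0.136). The 3 genes higher in MHb were those of the GABA-B receptor, Gabbr2 (2.06 ± 0.16) and Gabbr1 (0.67 ± 0.13), and of its auxiliary subunit Kctd8 (2.76 ± 0.15). Kctd16, another auxiliary subunit gene, was higher in LHb by 1.93 ± 0.26. Slc12a5, which encodes the chloride extruder KCC2 that makes GABA-A responses hyperpolarizing, read 12.42, 12.68, 12.73 and 12.73 in LHb and 7.90, 7.76, 7.35 and 7.87 in MHb, a difference of 4.92 ± 0.16 with no overlap.

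Glutamate receptor genes differed by type. Of 16 ionotropic subunit genes, 8 were higher in LHb and 3 in MHb. The LHb count fell to 4 without the O2 pair and to 5 without the sevoflurane pair, with 3 in MHb in both cases, and the brighter genes gave 6 and 5. The kainate receptor genes Grik1 (3.94 ± 0.23) and Grik2 (2.38 ± 0.16) and the delta receptor gene Grid1 (3.37 ± 0.14), whose protein binds cerebellins, led on the LHb side. The AMPA receptor genes Gria3 (1.36 ± 0.14) and Gria1 (1.09 ± 0.14) and the NMDA receptor gene Grin2b (1.26 ± 0.15) were the 3 higher in MHb. Grin2a was higher in LHb by 0.95 ± 0.17. Of 6 metabotropic receptor genes, 4 were higher in LHb, led by Grm5, which couples to Gq (4.36 ± 0.15), and Grm7, which acts at nerve terminals (3.93 ± 0.16), and Grm3 was higher in MHb by 0.52 ± 0.14. The Grm3 call was lost without the sevoflurane (-0.52, limma adjusted p = 0.056), O2 (-0.54, 0.0502) or propofol pair (-0.44, 0.0702).

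Most neuropeptide precursor genes did not pass. Of 34 measured, 10 were higher in LHb, 5 in MHb and 19 did not pass. The MHb count is near the 15.2% of all genes, and the brighter genes gave 4 in each region. Tac1, the substance P precursor gene, read 11.35, 10.96, 10.66 and 11.74 in LHb and 14.49, 14.04, 14.57 and 14.74 in MHb. Cartpt, the precursor gene of the CART peptides, read 11.00, 11.62, 9.69 and 9.09 in LHb and 4.89, 4.22, 4.50 and 5.41 in MHb. Penk, the enkephalin precursor gene, read 10.26, 9.31, 8.96 and 10.26 in LHb and 5.67, 6.23, 5.48 and 5.61 in MHb. The arrays of the regions did not overlap, though Cartpt varied across the LHb arrays.

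After Tac3 and Tac1, the genes higher in MHb were Nppa, the atrial natriuretic peptide gene (2.86 ± 0.18), Calcb, a calcitonin gene-related peptide gene (1.60 ± 0.18), and Cck (0.72 ± 0.17). Higher in LHb were also Nmb (neuromedin B, 2.82 ± 0.23), Apln (apelin, 2.41 ± 0.19), Npy (1.85 ± 0.20), Vgf (1.52 ± 0.19), Sst (somatostatin, 1.22 ± 0.20) and Pdyn (dynorphin, 1.00 ± 0.21). Adcyap1, the PACAP gene, read 11.49 to 12.58 in LHb and 11.79 to 12.09 in MHb and did not pass (-0.19 ± 0.18).

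Among 35 peptide receptor genes, 14 were higher in LHb and 5 in MHb, the latter near the 15.2% of all genes. The balance turned in the brighter genes, with 3 in LHb and 5 in MHb. The tachykinin receptor genes Tacr3 (2.02 ± 0.18) and Tacr1 (0.84 ± 0.19), whose ligands come from Tac3 and Tac1, were higher in MHb, as were the somatostatin receptor genes Sstr2 (3.25 ± 0.15) and Sstr4 (2.73 ± 0.16) and the neurotensin receptor gene Ntsr1 (1.42 ± 0.16). The galanin receptor gene Galr1 (3.48 ± 0.27) and the orexin receptor gene Hcrtr2 (2.98 ± 0.19) were higher in LHb. So was Ntsr2 (3.46 ± 0.14), a receptor gene of astrocytes. Oprm1, the mu opioid receptor gene, read 10.54 to 12.37 in LHb and 10.75 to 11.60 in MHb and did not pass (0.36 ± 0.19), though it did without the Intralipos pair (0.60, limma adjusted p = 0.0242). Oprk1 was higher in LHb by 0.56 ± 0.17. The Oprk1 call was lost without the sevoflurane (0.46, limma adjusted p = 0.13), O2 (0.51, 0.11) or propofol pair (0.52, 0.098).

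Serotonin, dopamine and orphan receptor genes were also divided, with 12 of 32 higher in LHb and 7 in MHb. In the brighter genes the balance turned, with 2 in LHb and 6 in MHb. Htr2c, a Gq-coupled serotonin receptor gene, read 16.57, 16.75, 16.25 and 16.46 in LHb and 12.90, 12.35, 12.38 and 12.16 in MHb. Htr2a, its close relative, read 8.60, 8.93, 8.16 and 8.26 in LHb and 3.80, 4.21, 3.91 and 3.02 in MHb. Drd1, a dopamine receptor gene, read 6.87, 7.97, 7.91 and 8.16 in LHb and 3.83, 3.91, 3.48 and 3.58 in MHb. LHb was the higher region in every pair for all 3. Htr1b (4.02 ± 0.14) and the orphan receptor gene Gpr83 (4.10 ± 0.18) were also higher in LHb. In MHb the higher genes were Gpr139, an orphan receptor gene of the habenula (3.28 ± 0.16), Htr4 (2.59 ± 0.15), the ligand-gated channel gene Htr3a (2.47 ± 0.16), Gpr151, Htr5b, Htr5a (1.51 ± 0.13) and Adrb1 (1.27 ± 0.20).

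Channel genes that set firing patterns differed within families. Among 22 pacemaker and calcium channel genes, 10 were higher in LHb and 7 in MHb, and in the brighter genes 5 and 7. The T-type channel gene Cacna1g read 9.59, 10.07, 9.28 and 8.81 in LHb and 5.24, 6.07, 5.13 and 4.85 in MHb, beside Cacna1i. Cacna1e, the R-type channel gene, read 12.51, 12.60, 12.07 and 12.15 in LHb and 14.81, 15.38, 15.02 and 15.40 in MHb. Arrays of the regions did not overlap for either, and the directions were opposite. The N-type channel gene Cacna1b (3.29 ± 0.22) and the P/Q-type channel gene Cacna1a (2.34 ± 0.27) were higher in LHb, and the auxiliary subunit genes Cacnb3 (3.46 ± 0.14) and Cacna2d2 (2.28 ± 0.14) in MHb. Of the pacemaker channel genes, Hcn2 was higher in LHb by 2.28 ± 0.17 and Hcn4 in MHb by 2.05 ± 0.14.

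Potassium and sodium channel genes were also divided. Of 37 voltage-gated potassium channel genes, 14 were higher in each region and 9 did not pass. The share passing was 75.7%, and in the further potassium and sodium channel lists 79.2% and 64.3%. Of all genes 29.9% passed, and of the brighter genes 53.3%. The Kv3 genes Kcnc2 (3.93 ± 0.20), Kcnc4 (3.26 ± 0.16) and Kcnc1 (2.52 ± 0.17), which serve fast firing, and Kcnq3 (3.26 ± 0.18), an M-current gene, were higher in LHb. The A-type channel genes Kcnd2 (1.85 ± 0.13) and Kcnd3 (0.91 ± 0.17) and their auxiliary subunit gene Kcnip1 (3.69 ± 0.19) were higher in MHb, as was Kcng4 (3.64 ± 0.17). Kcnip4, a relative of Kcnip1, was higher in LHb by 3.15 ± 0.14. Among 24 further potassium channel genes, the calcium-activated Kcnma1 (3.10 ± 0.14) and the two-pore-domain gene Kcnk1 (2.65 ± 0.14) led in MHb, and the two-pore-domain genes Kcnk2 (3.50 ± 0.22) and Kcnk9 (2.96 ± 0.14) were higher in LHb. Kcnj16 (4.74 ± 0.22) and Kcnj10 (3.04 ± 0.18), higher in LHb, are genes of astrocytes. This second list had 12 genes higher in LHb and 7 in MHb, but 4 and 7 in the brighter genes. Sodium channel genes were 4 higher in LHb and 5 in MHb of 14, with Scn3a higher in MHb by 2.24 ± 0.15 and Scn1a in LHb by 0.60 ± 0.15. The LHb count of the sodium channel list fell to 0 without the O2 pair and to 2 without the Intralipos pair. The Scn1a call was lost without the O2 pair (0.54, limma adjusted p = 0.0687) or the Intralipos pair (0.53, 0.0582).

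Calcium-binding protein genes ranged widely, from -2.48 to 7.70, with 11 of 20 higher in LHb and 7 in MHb. In this list 90.0% passed, beside 29.9% of all genes and 53.3% of the brighter genes. After Vsnl1 and Necab1, the sensor genes Caln1 (4.66 ± 0.22) and Hpca (4.08 ± 0.21) and the parvalbumin gene Pvalb (3.55 ± 0.26) were higher in LHb. Hpcal1, which is related to Vsnl1 and Hpca, was higher in MHb by 2.48 ± 0.14. Calb1, the calbindin gene, read 12.79 to 13.34 in LHb and 12.38 to 13.41 in MHb and did not pass (0.17 ± 0.17). Camk2a was higher in LHb by 3.10 ± 0.16 and Camk4 in MHb by 1.47 ± 0.14.

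Synapse organizer genes held relatives with opposite signs. Of 34 measured, 13 were higher in LHb and 8 in MHb. The share passing was 61.8%, beside 29.9% of all genes and 53.3% of the brighter genes. Cbln4 read 11.69, 11.89, 11.06 and 11.89 in LHb and 15.46, 15.33, 15.23 and 15.32 in MHb, opposite to Cbln1, while Cbln2 was higher in LHb by 0.97 ± 0.17. No Cbln4 arrays overlapped. The pentraxin genes Nptx1 and Nptx2 (3.76 ± 0.14) were higher in MHb. Flrt3 (3.52 ± 0.14), its receptor partner gene Adgrl2 of the latrophilin family (3.36 ± 0.14) and Lrrtm2, a neurexin ligand gene (3.14 ± 0.15), were higher in LHb.

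Vesicle release genes were evenly divided, 15 of 35 higher in LHb and 14 in MHb (11 and 15 in the brighter genes). Among them 82.9% passed, beside 29.9% of all genes and 53.3% of the brighter genes. Snap25, a core fusion protein gene, read 18.42 to 18.71 in LHb and 18.48 to 18.76 in MHb and did not pass (-0.10 ± 0.13). Syt9 (4.10 ± 0.19), Syt6 (3.18 ± 0.14) and Syt10 (2.64 ± 0.15) of the synaptotagmin family and the complexin gene Cplx1 (3.14 ± 0.14) were higher in MHb. Doc2b, a calcium sensor gene of asynchronous and spontaneous release (4.82 ± 0.19), Cadps, of dense-core vesicle release (4.20 ± 0.20), Rab3c (3.42 ± 0.16) and the synapsin gene Syn2 (3.25 ± 0.16) were higher in LHb. The granule protein gene Chga was higher in LHb by 5.52 ± 0.20, and this gene was chosen after its values were seen.

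Guidance and adhesion genes differed as well. Among 36 axon guidance genes, 15 were higher in LHb and 11 in MHb, and in the brighter genes 10 and 13. In this list 72.2% passed, and in the cadherin list 66.7%, beside 29.9% of all genes and 53.3% of the brighter genes. Sema3e, a secreted semaphorin gene, read 11.83, 11.85, 10.89 and 11.42 in LHb and 16.15, 15.93, 15.86 and 16.17 in MHb. Nrp2, a semaphorin receptor gene, was higher in MHb by 2.49 ± 0.18, and Robo2, a Slit receptor gene, by 2.31 ± 0.15. The netrin receptor genes Unc5d (3.02 ± 0.14), Unc5a (2.46 ± 0.14) and Unc5c (2.08 ± 0.15) and the Eph receptor gene Epha4 (3.34 ± 0.16) were higher in LHb, whereas Epha7 was higher in MHb by 2.24 ± 0.16. Of 21 cadherin genes 12 were higher in LHb, led by Pcdh19 (5.18 ± 0.20), Cdh10 (3.86 ± 0.15) and Pcdh7 (3.78 ± 0.16), and 2 in MHb, Pcdh8 (2.91 ± 0.15) and Cdh8 (2.41 ± 0.14).

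Immediate early genes, switched on soon after a neuron fires, were higher in LHb in 12 of 29 cases. Of all genes 14.7% were higher in LHb. Nptx2 was the 1 gene of the list higher in MHb, where 2 were without the propofol or the Intralipos pair, and 4 (against 7 in LHb) with only the sevoflurane and O2 pairs. Egr1 read 10.80, 12.29, 12.02 and 14.08 in LHb and 7.38, 10.42, 7.66 and 7.77 in MHb. Fos read 10.13, 10.09, 10.09 and 11.94 in LHb and 6.89, 9.69, 6.06 and 6.55 in MHb. LHb was higher in every pair, and the paired differences were 3.42, 1.87, 4.36 and 6.32 for Egr1 and 3.24, 0.41, 4.03 and 5.38 for Fos with O2, sevoflurane, Intralipos and propofol. The mean difference was 3.99 ± 0.53 for Egr1 (limma adjusted p = 0.00024) and 3.26 ± 0.59 for Fos (0.002). With trend and robust variance estimates neither passed (adjusted p = 0.0504 and 0.107). Bdnf, the neurotrophin gene, read 7.56 to 8.77 in LHb and 3.70 to 4.47 in MHb and differed by 4.06 ± 0.15. Npas4 (0.23 ± 0.18), Arc (-0.49 ± 0.18) and Nr4a1 (0.46 ± 0.51) did not pass. Arc was called higher in MHb without the Intralipos pair (-0.65, limma adjusted p = 0.0384), and with only the sevoflurane and O2 pairs (-0.89, 0.0161). Nr4a1 was called higher in LHb with only the propofol and Intralipos pairs (1.72, 2.42e-05).

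**Figure D3:**
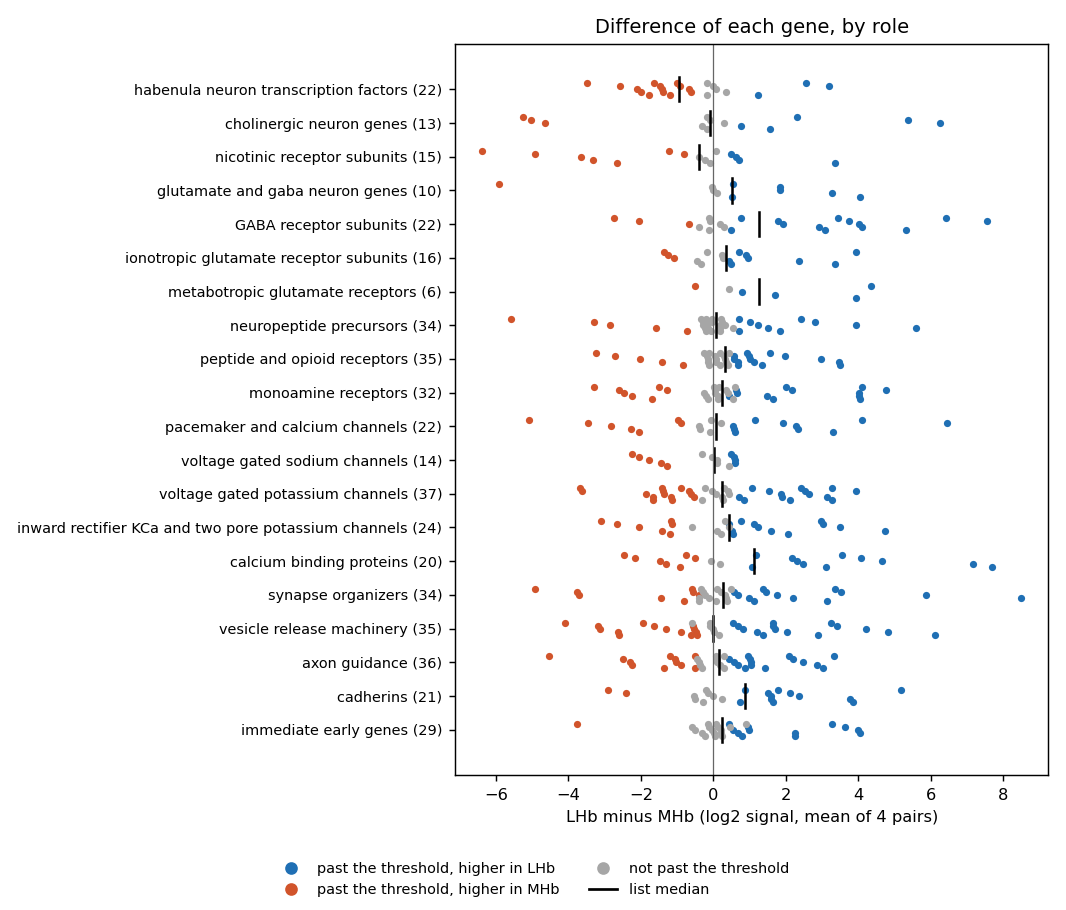
Each point is 1 gene and its mean LHb minus MHb difference over 4 pairs (log2 signal, x axis), in rows by role with the number of genes measured; blue and orange points passed the test, grey points did not, and the bar is the row's median. GABA receptor genes have a median of 1.26 and transcription factor genes of -0.96, while most other rows spread to both sides of 0.

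Most astrocyte, oligodendrocyte and endothelial markers were higher in LHb. Of 14 astrocyte markers, 13 were higher in LHb and 1 in MHb, with a median of 3.10. Slc1a2, the main astrocyte glutamate transporter gene, read 17.58, 17.25, 18.02 and 17.61 in LHb and 12.91, 12.97, 13.67 and 13.73 in MHb. Itih3 read 14.31, 14.35, 15.01 and 14.63 in LHb and 8.44, 8.04, 8.42 and 8.71 in MHb. The regions were apart for both. The members did not move alike. The connexin gene Gjb6 differed by 5.95 ± 0.21, Slc1a3 by 4.19 ± 0.13 and Aqp4, the water channel gene, by 0.64 ± 0.15, while Gfap, the intermediate filament gene, was higher in MHb by 0.80 ± 0.16. Aqp4 lost its call without the O2 pair (0.54, limma adjusted p = 0.0513).

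Oligodendrocyte markers were higher in LHb in 15 of 16 cases (median 1.83), among them the myelin genes Mbp (1.47 ± 0.16) and Mog (2.16 ± 0.13). Their differences ran from 0.53 to 2.54. Of oligodendrocyte precursor markers 3 of 9 were higher in LHb (median 0.32), and Pdgfra did not pass (0.38 ± 0.14), though it did with trend and robust variance estimates (limma adjusted p = 0.0104), after quantile normalization (0.43, 0.0397) and in the brighter genes (0.0235). Endothelial markers were higher in LHb in 12 of 13 (median 1.12), pericyte and fibroblast markers in 10 of 16 (0.76; 6 in the brighter genes), microglia markers in 7 of 12 (0.52; 3 with no treatment block) and blood cell genes in 3 of 9 (0.13). The precursor and blood cell lists each had 33.3% passing, near the 29.9% of all genes. Of all genes 14.7% were higher in LHb. General neuron markers were even, 6 higher in LHb and 6 in MHb of 14, with Rbfox3, which encodes the nuclear protein NeuN, higher in MHb by 2.56 ± 0.13.

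The log2 of the summed astrocyte signal was 19.19 to 19.68 in the LHb arrays and 17.40 to 17.89 in the MHb arrays. For oligodendrocyte markers it was 19.80 to 20.18 and 18.11 to 18.85. No background call was used, so whether each marker was detected in both regions was not assessed. These markers move with the region, and their part in the differences of other genes was not tested.

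Part of the ependyma and choroid plexus markers were higher in MHb. Ependymal cells line the ventricle and bear cilia, and 6 of 11 of their markers were higher in MHb, 0 in LHb. In the brighter genes 1 was higher in MHb. Tmem212 read 4.22, 3.32, 3.73 and 3.30 in LHb and 7.43, 8.35, 8.22 and 6.58 in MHb. The cilium regulator gene Foxj1 was higher in MHb by 1.11 ± 0.16 and Ak7, a cilium enzyme gene, by 4.30 ± 0.18. The log2 of the summed ependyma signal was 7.88 to 8.33 in LHb and 9.78 to 10.58 in MHb.

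Of 15 choroid plexus markers, 7 were higher in MHb and 2 in LHb, the latter Prlr (1.14 ± 0.13) and Enpp2 (1.24 ± 0.14), and Enpp2 is also an oligodendrocyte gene. The brighter genes gave 4 and 1. Ttr, which encodes transthyretin and is the most abundant choroid plexus transcript, read 7.68, 6.62, 8.65 and 8.42 in LHb and 14.63, 13.43, 13.59 and 14.10 in MHb. Kl was higher in MHb by 0.81 ± 0.18 and Folr1 by 0.66 ± 0.21, beside 6.10 ± 0.30 for Ttr. The Folr1 call was lost without the sevoflurane (-0.60, limma adjusted p = 0.117), O2 (-0.49, 0.16) or propofol pair (-0.63, 0.105). Otx2, a transcription factor gene of choroid plexus, was higher by 3.99 ± 0.14. The mean log2 level of the list was 6.44 to 6.66 in LHb and 7.56 to 7.87 in MHb, and its summed signal, on the log2 scale, was 15.81 to 16.08 and 15.38 to 16.01, where Enpp2 weighs heavily. The part of choroid plexus or ependyma in the genes called higher in MHb was not tested.

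Neighbouring brain tissue gave no single direction. Of 16 thalamus markers 4 were higher in LHb and 6 in MHb (median 0.05), and the list shares Slc17a7, Zic1 and Calb2 with habenula genes. Prkcd, a thalamic kinase gene, did not pass (-0.41 ± 0.25). Of 14 hippocampus markers 3 were higher in LHb and 5 in MHb, and the brighter genes gave 1 in each. The shares passing were 62.5% for thalamus and 57.1% for hippocampus, beside 29.9% of all genes. Camk2a (3.10 ± 0.16), Pdzd2 (0.77 ± 0.13) and Trpc6 (0.60 ± 0.13) were higher in LHb, and Neurod2 (3.62 ± 0.22), Neurod6 (2.14 ± 0.23), Prox1 (2.01 ± 0.16), Fibcd1 (0.97 ± 0.19) and Lct (0.44 ± 0.14) in MHb. The Lct call was lost without any 1 of the 4 pairs (limma adjusted p = 0.05 to 0.127). The log2 of the hippocampus list's summed signal was 11.84 to 12.02 in LHb and 10.18 to 10.72 in MHb. Its mean log2 level went the other way, at 5.32 to 5.66 in LHb and 5.70 to 5.98 in MHb.

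**Figure D4:**
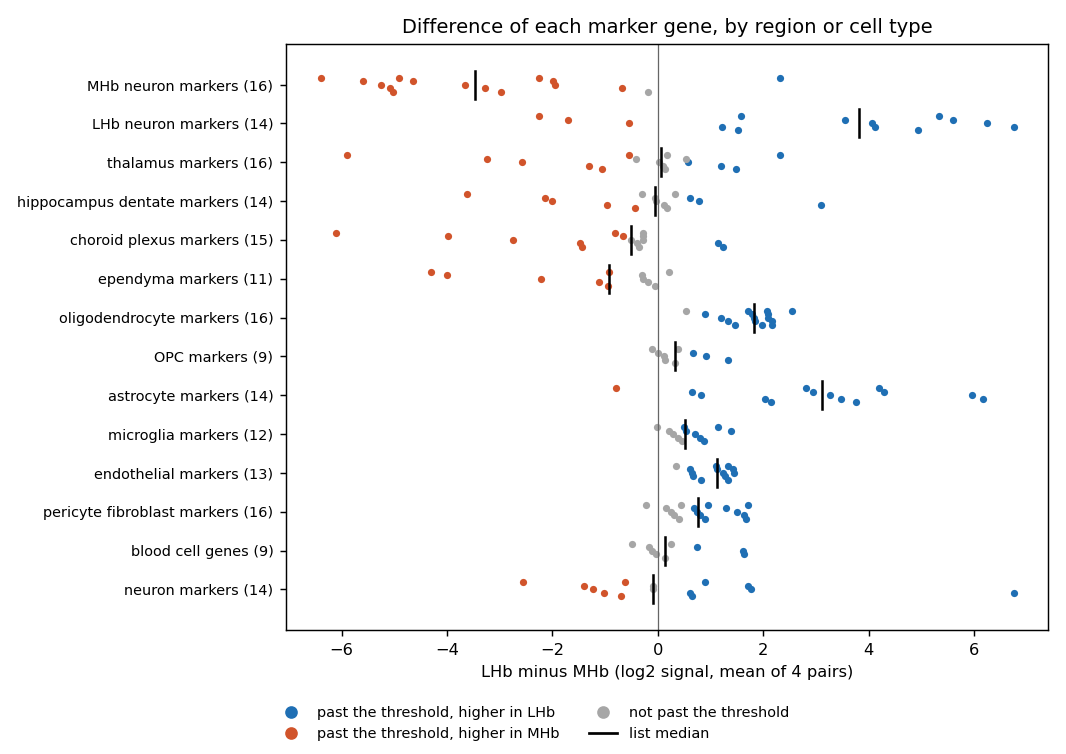
Each point is 1 marker gene and its mean LHb minus MHb difference over 4 pairs (log2 signal, x axis), in rows by region or cell type with the number of genes measured, coloured as in the plot by role, with the row's median as a bar. Astrocyte, oligodendrocyte and endothelial rows lie mostly above 0 and ependyma and choroid plexus rows mostly below 0.

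The other 8 arrays, from the hindbrain, hold 4 of the solitary nucleus (Sol) and 4 of the vestibular nucleus in its medial part (MVe), and the habenular arrays were set beside them. For 867 of the 2282 genes higher in MHb (38.0%), all 4 MHb arrays lay above the other 12 arrays. For 119 of the 2215 genes higher in LHb (5.4%), all 4 LHb arrays did. Conversely, for 889 of the genes higher in LHb (40.1%) the MHb arrays lay below the other 12 arrays, and for 59 of the genes higher in MHb (2.6%) the LHb arrays did. These counts are descriptions without a test, and the level shift between the array sets makes them strict. Genes called in a direction already meet part of the rule, and the share over all genes was not computed. How unusual these percentages are is therefore not known. Pearson correlations across genes within a treatment lay between 0.966 and 0.973 for LHb against Sol or MVe and between 0.930 and 0.939 for MHb against them.

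Of the 15 largest differences towards MHb, 14 had MHb above the other 12 arrays, and Ttr was the exception, with hindbrain arrays at 7.18 to 18.25. Of the 15 largest towards LHb, 6 had LHb above the other 12 arrays, namely Cbln1, Gabra5, Necab1, Cacna1i, Slc24a3 and Gpr158, and 14 had MHb below them, all but Necab1. Vsnl1 is an example of the second kind, with hindbrain arrays at 17.69 to 18.60 beside 17.28 to 17.52 in LHb and 9.52 to 9.88 in MHb. Chrnb3 is an example where LHb stood between, with hindbrain arrays at 3.78 to 4.53 beside 8.77 to 10.42 in LHb.

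**Figure D5:**
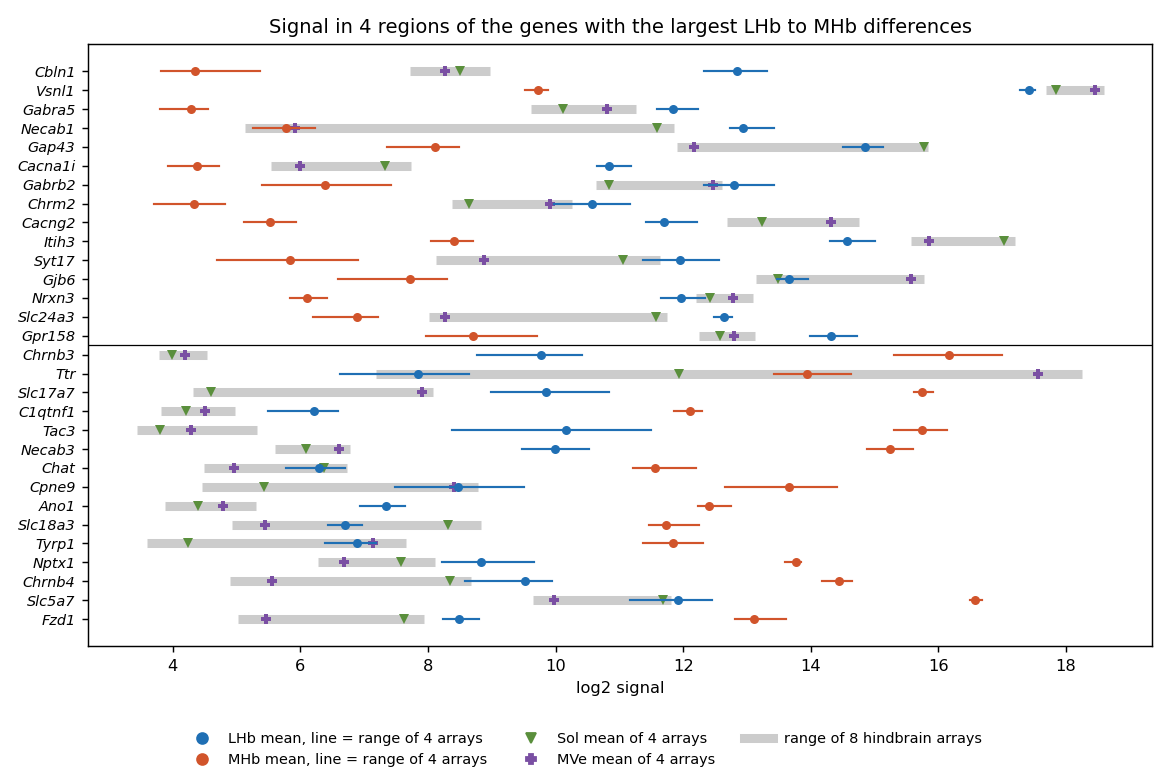
Log2 signal (x axis) of the 30 genes with the largest differences: dots with lines are means and ranges of the 4 LHb (blue) and 4 MHb (orange) arrays, the grey bar is the range of the 8 hindbrain arrays, and the triangle and cross are the Sol and MVe means. In the upper block MHb stands apart to the left in 14 of 15 genes and in the lower block to the right in 14 of 15.

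Whether the region difference changed with anesthesia was tested as an interaction, the difference with sevoflurane and propofol minus that with O2 and Intralipos. None of the genes passed (0 by limma), with 718 (4.77%) at an unadjusted p under 0.05. The smallest p on the positive side belonged to Syt17, whose differences were 5.31, 7.05, 5.16 and 6.96 with O2, sevoflurane, Intralipos and propofol. Its interaction was 1.77 ± 0.28 with a limma adjusted p of 0.97, which the other genes named here share. Galr1 (1.45 ± 0.28), Or6c35 (2.27 ± 0.47), Sertad4 (1.38 ± 0.29) and Ccdc190 (1.55 ± 0.32) followed on the positive side. On the negative side were the channel gene Trpc5 (-1.76 ± 0.29), Cad (-1.77 ± 0.30), Fuom (-1.58 ± 0.28), Or5aq1d (-1.39 ± 0.29) and Pvalb (-1.38 ± 0.29). The Pvalb differences were 4.05, 2.93, 4.43 and 2.79, so LHb was higher under every treatment.

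The same test between the array sets, sevoflurane and O2 against propofol and Intralipos, also called 0 genes by limma, with 777 (5.17%) at an unadjusted p under 0.05. Chrna6 had the smallest p, with paired differences of -3.98, -3.99, -1.13 and -1.58 and an interaction of -2.62 ± 0.30 (adjusted p = 0.137). Its call passed with trend and robust variance estimates (0.0449). The sets differ both in their treatment pairs and in the mean level of their arrays, and these cannot be told apart. Ppp1r14c (-1.44 ± 0.29), Dusp1 (-1.99 ± 0.41), Ttr (-1.57 ± 0.33) and Cfap95 (-1.81 ± 0.39) followed in the same direction, and Pgam5 (1.70 ± 0.28), Afmid (1.65 ± 0.32), Defb25 (1.496 ± 0.31), Asb4 (1.29 ± 0.28) and Spryd4 (1.29 ± 0.28) in the other, each with an adjusted p of 0.952. With 2 pairs on each side, these tests see large changes only.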

How the data were processed

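The deposited values are log2 signals of Affymetrix arrays, 1 array per region and treatment, and the submitters' processing notes name Affymetrix Expression Console 1.3.0. The log2 scale was read from the values (2.47 to 19.93), and how probes were summarized, and on which build, is not given in the sources used here. Of 24834 probe sets, 1646 were controls and 8139 had no gene symbol in the platform annotation, and the brightest probe set was kept for each of 15037 genes. Region differences were fitted with limma 3.58.1 in R 4.3.3 with treatment as a block (3 residual and 6.85 prior degrees of freedom), after a check on simulated data. The pairing comes from the treatment labels; deviations of same-treatment arrays correlated at 0.402 to 0.485, and those of the same array set at 0.362 to 0.387. The text names the 15 largest called differences in each direction with the same sign in 4 pairs, members of the role and marker lists, the 5 smallest p-values in each direction of an interaction, and the 4 markers. Members and lists were chosen with earlier results of these data known. The number of arrays limits the precision, at a median standard error of 0.154. Alternatives covered variance estimates, normalization, dim genes, probe sets, the block, all 16 arrays and single pairs.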

Additional observations from a re-analysis of the deposited data

Results flagged for a closer look

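Of 264 groups of 4 paired values (230 named genes and 34 list medians), 9 had 1 treatment far from the other 3 by Dixon's criterion. Chance would meet it in about 1 in 20 independent groups. The groups here overlap and were partly picked by their values in these data, so the count of 9 cannot be judged against that rate. The paired difference of Gjb6 was 6.87 with O2 and 5.57 to 5.68 with the others. That of Gabra3 was 3.38 with propofol against 4.24 to 4.42, and that of Gabrg3 3.11 with sevoflurane against 4.24 to 4.43. Cdh10 stood at 3.42 with propofol against 3.99 to 4.01, and Chrnb2 at -1.17 with propofol against -0.73 to -0.67. With Intralipos, Kcnj10 stood at 3.72 against 2.72 to 2.88, Tac1 at -3.91 against -3.14 to -3.00, and Pdgfra at 0.15 against 0.45 to 0.47. Snap25 stood at -0.27 with O2 against -0.05 to -0.03. The sign was the same in all 4 pairs in each of these genes.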

How the results depend on the processing

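The 4497 genes called with the treatment pairing as a block became 2883 with no replicate block, of which 1347 were higher in MHb. With only the sevoflurane and O2 pairs they became 2920, with 1346 higher in MHb. With a size of at least 1 also required, 1788 passed, fewer by construction, 1050 higher in LHb and 738 in MHb. Leaving out 1 treatment pair at a time gave 3584 to 3896 genes, 1815 to 1959 higher in LHb and 1769 to 1937 in MHb. The share of calls that were higher in LHb ran from 45.0% among the brighter genes to 53.9% with the sevoflurane and O2 pairs. No gene called both as reported and under one of these alternatives changed sign. With trend and robust variance estimates the test by array set called 1 gene, Chrna6. Among the genes named, values changed sign only in ones that had not passed. Without the sevoflurane pair these were Cad (0.16), Fuom (0.17) and Gad2 (0.31). Without the propofol pair they were Cad (0.027), Fuom (0.26), Gad1 (-0.31), Nr4a1 (-0.27) and Pgam5 (0.12), and without the Intralipos pair Defb25 (0.062) and Pgam5 (0.15). With only the sevoflurane and O2 pairs they were Chrm1 (0.012), Defb25 (0.51), Fuom (0.042), Gad1 (-0.27), Npas4 (-0.065), Nr4a1 (-0.80), Pgam5 (0.70) and Spryd4 (0.028). With only the propofol and Intralipos pairs they were Adcyap1 (0.05), Calb1 (-0.15), Gad2 (0.41) and Gbx2 (-0.062). With no replicate block Cck (limma adjusted p = 0.161), Chrnb2 (0.0587), Kl (0.0667) and Sst (0.0996) also lost their calls, beside genes whose calls a single pair already decided. With only the propofol and Intralipos pairs Gabbr1 (-0.635, limma adjusted p = 0.07), Kl (-0.46, 0.235) and Tacr1 (-0.64, 0.0843) lost theirs. So did Tmem35a (0.55, 0.13) and Trpc6 (0.635, 0.0701). With only the sevoflurane and O2 pairs Cck (-0.665, 0.0945), Fos (1.82, 0.0681) and Gfap (-0.58, 0.0754) lost theirs. So did Kcnd3 (-0.73, 0.0568), Pdyn (0.61, 0.144) and Trpc6 (0.56, 0.088). Calls were gained by Pdgfra, Arc, Oprm1 and Nr4a1, as given with those genes, and by Spryd4, Or6c35, Defb25 and Pgam5 with only the propofol and Intralipos pairs (-1.26, -1.22, -0.99 and -1.001). In the brighter genes, which drops dim members, the balance between regions turned in the lists of peptide receptors, monoamine receptors, pacemaker and calcium channels, further potassium channels, vesicle release and axon guidance. All brighter genes together had 1801 higher in LHb and 2204 in MHb, so a turn towards MHb is not particular to these lists. The causes were not tested.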
